A study of Rattus norvegicus with 16 samples.

Results

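Chromatin regulators and high mobility group (HMG) proteins were followed in rat neural stem and progenitor cells after the withdrawal of a mitogen. The members were the genes with exactly 1 symbol in the chip's mouse annotation whose symbol begins with Hdac, Smarc, Cbx, Chd, Kdm, Kmt, Hmga, Hmgb, Hmgn, Dnmt or Ezh. This gave 53 genes on 88 array features, of 6241 named genes and 15151 features in all, and the rule itself uses symbols and no measured value. Features of 1 gene were averaged on each array, and all 53 genes could be tested among 12559 genes and unnamed features. The cells came from Sprague-Dawley neocortex at embryonic day 14.5 and had been expanded as a monolayer in fibroblast growth factor 2 (FGF-2, 10 ng/ml). They were then kept for 12 h or 6 d without added growth factor, or for the same times with PDGF-AA, the A homodimer of platelet-derived growth factor (10 ng/ml), which makes 4 groups with 4 arrays each. Every array set sample RNA against RNA of FGF-2-treated cells, with the dyes swapped on 2 of the 4 arrays of a group. The labels mention at least 2 RNA preparations without saying which arrays share one, so the p-values reflect how much hybridisations of a group varied, and part of that may be technical.

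Chromatin regulators set how DNA is wrapped and read. Writers such as the KMT and EZH methyltransferases place methyl groups on histone tails, KDM demethylases and HDAC deacetylases remove marks, and CBX proteins read them. SMARC and CHD proteins are ATPases or partner subunits of remodellers that use ATP to move nucleosomes. DNMT enzymes methylate DNA, and HMG proteins bind DNA or nucleosomes and loosen or bend them. Several of these genes are known to be expressed most in dividing cells, and others are known to take part in the change from neural progenitor to neuron or glia.

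Values are log2 ratios of sample over FGF-2 reference. The base of the deposited ratios is taken as 2 and their direction is likely but not stated, so every fold and sign rests on both. The basis for the direction was that replication genes lay below 0 after withdrawal of FGF-2, so a fall of genes tied to division is not independent of it. Rat RNA was read on mouse cDNA. Values given per array keep the effect of the dye, whereas group changes and their standard errors (SE) come from a limma fit with a dye term. A dye effect passed the threshold in 41.5% of members and in 39.1% of all units tested, so arrays of a group often split by dye. Of 58 listed cell cycle genes 43 were measured. After 12 h without factor 41 of them fell, with array means of -1.55 to -1.22. With PDGF-AA 28 fell at 12 h (-0.94 to -0.55) and 4 at 6 d (-0.96 to 0.27), and 36 fell at 6 d without factor (-1.05 to -0.46). The highest of these means, 0.27, was that of replicate 1 of PDGF-AA at 6 d, where the other 3 arrays lay between -0.96 and -0.31. None of the 3 measured microglia markers and none of the 3 endothelial markers passed the threshold in any group. Among all units 11.7% and 13.7% passed at 12 h and 6 d without factor, and 3.01% and 3.22% with PDGF-AA. With 3 genes a list, 0 therefore says little about these cell types. Of 7 measured astrocyte markers 5 rose and 1 fell at 6 d without factor (array means 0.61 to 1.48) and 3 rose and 1 fell with PDGF-AA (-0.08 to 1.2). In the 12 h groups 1 of them rose and 1 fell without factor, and none passed with PDGF-AA. At 6 d replicate 4 gave the lowest astrocyte mean without factor (0.61) and the highest with PDGF-AA (1.2). On the cell cycle list it gave -0.46 and -0.96, the highest and lowest means of these groups. Of 12 listed oligodendrocyte genes 2 were measured. Their mean on replicate 4 was 0.86 without factor, against 2.43 to 3.06 on the other arrays. With PDGF-AA it was 3.06, against 1.01 to 1.79. Why replicate 4 differed was not tested. Of 5 measured neuron markers 2 rose and 1 fell at 12 h without factor, 1 rose with PDGF-AA, 2 rose at 6 d without factor and none passed with PDGF-AA. Of 5 progenitor markers 2 fell at 12 h without factor and 1 with PDGF-AA, and at 6 d 2 fell and 1 rose without factor and 2 fell with PDGF-AA. The part of these cell types in the results below was not tested. Ratios give no level, so the labelled cell type could not be checked against the level of its markers.

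After 12 h without factor, 13 of the 53 genes differed from the FGF-2 reference, 9 higher and 4 lower (24.5%, against 11.7% of all units tested, 5.21% higher and 6.48% lower). The HMG genes Hmgb2 and Hmgn5, the Polycomb methyltransferase gene Ezh2 and the histone methyltransferase gene Kmt5a fell. Kdm5b, Kdm6b, Kdm4b, Kdm3a, Kdm5a, Kdm3b, Kmt2e, Chd7 and Smarcd1 rose. With PDGF-AA for 12 h the count was 4, with Hmgb2 and Hmgn5 lower and Kdm5b and Kdm6b higher, against 3.01% of all units, 0.661% higher and 2.35% lower. After 6 d without factor it was 14, with 5 higher and 9 lower, against 13.7% of all units, 6.99% higher and 6.73% lower. Cbx3, Kdm1a, Cbx1, Hdac3 and Smarcc1 then joined Hmgb2, Hmgn5, Ezh2 and Kmt5a among the genes that fell, and Chd3 and Chd4 joined Kdm6b, Kdm5b and Kmt2e among those that rose. After 6 d with PDGF-AA no member passed the threshold in limma (0 of 53, against 3.22% of all units, 1.9% higher and 1.32% lower), and 11 members (20.8%) had an unadjusted p under 0.05, against 15.5% of all units. The median change of the members was 0.075 at 12 h and 0.016 at 6 d without factor, and 0.062 at 12 h and -0.041 at 6 d with PDGF-AA. The median of all units lay between -0.001 and 0.004 in the 4 groups. All 4 comparisons share the FGF-2 reference, whose own spread is left out. In bulk RNA, fewer cells of a type and less RNA per cell cannot be told apart.

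**Figure D1:**
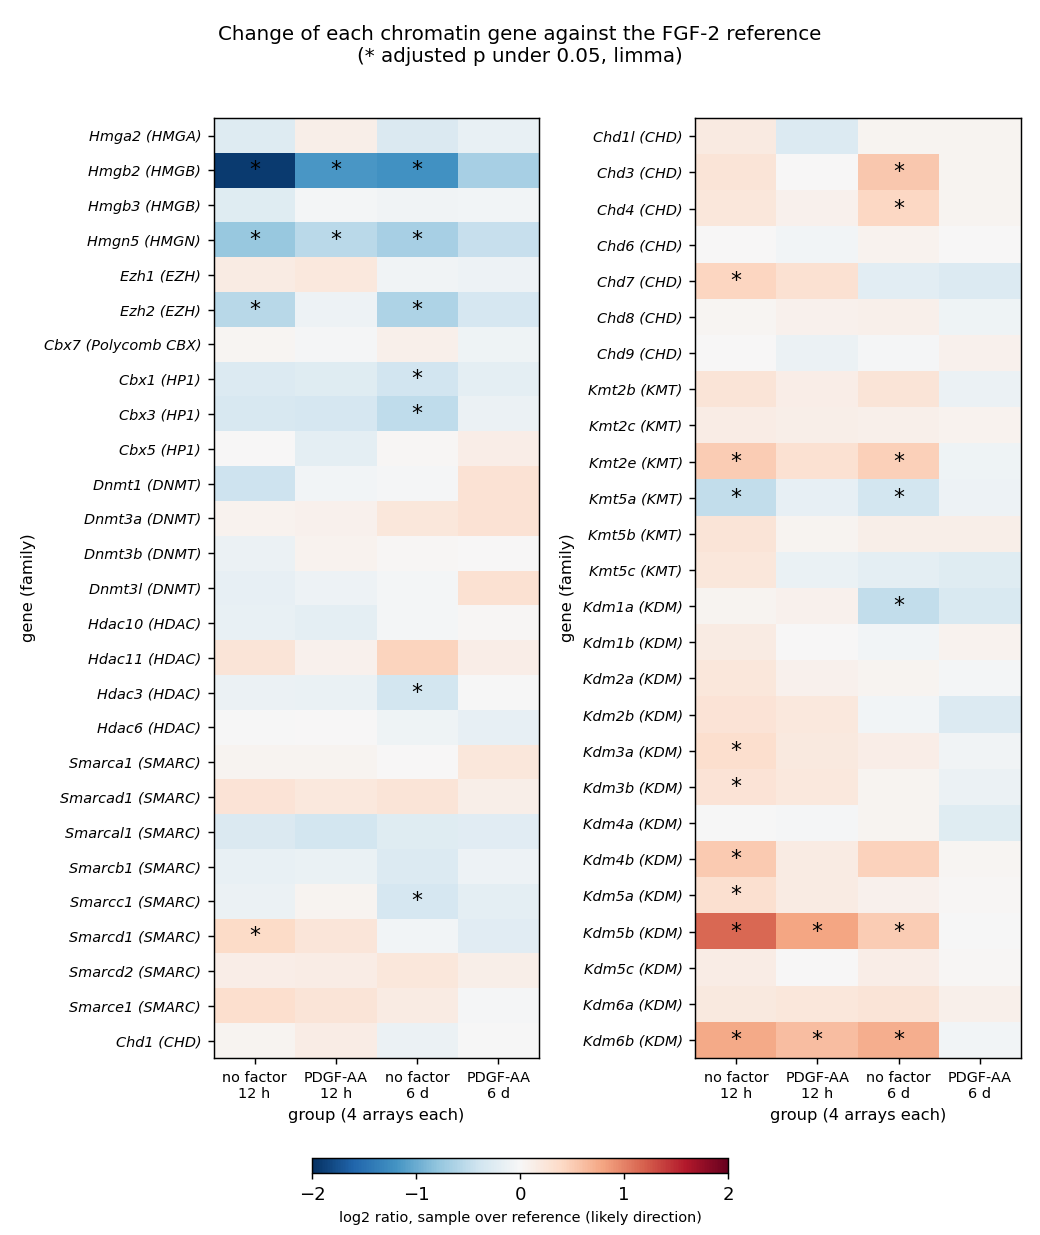
Colour gives the change of each of the 53 genes (rows, with family) in each of the 4 groups (columns, 4 arrays each) as a log2 ratio against the FGF-2 reference from limma, and asterisks mark an adjusted p under 0.05. Hmgb2 is the lowest gene in every column, from -1.91 to -0.67, Kdm5b is the highest at 12 h without factor (1.15), and the column of PDGF-AA at 6 d has no asterisk.

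These counts moved with single arrays. At 12 h without factor the count was 8 without replicate 2 of that group. In the 12 h group with PDGF-AA it was 0 when replicate 1 or replicate 2 was left out and 2 without replicate 4. At 6 d without factor it was 9, 8 and 6 without replicates 1, 2 and 3. At 6 d with PDGF-AA, leaving out replicate 1 gave 3 genes that fell: Hmgb2 (-1.07, adjusted p = 0.00431), Hmgn5 (-0.63, adjusted p = 0.00818) and Ezh2 (-0.45, adjusted p = 0.0464). Hmgn5 alone passed there without replicate 3 of PDGF-AA at 12 h. Without the dye term the counts in the 4 groups were 8, 1, 6 and 0, so many calls rest on that term.

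Hmgb2 encodes an HMG-box protein that bends DNA and is abundant in dividing cells, and it had the largest change of all members. After 12 h without factor its 4 arrays read -2.63, -1.34, -1.73 and -1.94. With PDGF-AA at 12 h they read -1.19, -1.44, -1.2 and -0.84, so the groups as measured overlapped only between -1.44 and -1.34. After removal of the dye effect of 0.67 the ranges were -2.29 to -1.61 without factor and -1.53 to -0.86 with PDGF-AA. The test between these 2 groups, given below, did not pass. At 6 d the arrays without factor read -1.08, -1.25, -1.78 and -0.72. With PDGF-AA at 6 d they read 0.78, -1.10, -0.64 and -1.71, so replicate 1 alone lay above 0. The fitted changes were -1.91 ± 0.23 (SE, n = 4 arrays), a 3.75-fold fall, at 12 h without factor (adjusted p = 3.92e-05) and -1.17 with PDGF-AA (adjusted p = 0.00941). At 6 d they were -1.21 without factor (adjusted p = 0.00176) and -0.67 ± 0.23 with PDGF-AA (adjusted p = 0.146). The fall at 12 h with PDGF-AA missed the threshold without replicate 1 (-1.04, adjusted p = 0.107) or replicate 2 (-1.19, adjusted p = 0.0601) of that group. Array means of the cell cycle list were low in the same groups and high on the same replicate 1, and their part in the fall of Hmgb2 was not tested.

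Hmgn5, which encodes a protein that binds nucleosomes and counters linker histones, fell in the same 3 groups by less. Its arrays read -1.11, -0.33, -0.65 and -0.97 at 12 h without factor and -0.34, -0.96, -0.48 and -0.40 with PDGF-AA. At 6 d they read -0.58, -0.80, -1.12 and -0.13 without factor, and 0.28, -0.43, -0.73 and -0.96 with PDGF-AA. All 12 arrays of the first 3 groups lay below 0, and the ranges of all 4 groups overlapped. The dye effect of Hmgn5 was 0.57, with the sample in Cy5 reading higher. The changes were -0.76 ± 0.12 (adjusted p = 0.000494), -0.54 (adjusted p = 0.0219), -0.66 (adjusted p = 0.00143) and, in PDGF-AA at 6 d, -0.46 ± 0.12 (adjusted p = 0.0506). At 12 h with PDGF-AA the fall missed the threshold without replicate 1, 2 or 4 of that group (-0.51, -0.50 and -0.49, adjusted p 0.107 to 0.157).

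The other HMG members, Hmgb3 and Hmga2, passed the threshold in no group. Hmgb3 lay between -0.24 and -0.04. Hmga2, known for keeping the self-renewal of young neural stem cells, was at -0.26 and -0.29 ± 0.11 without factor at 12 h and 6 d, and at 0.12 and -0.15 with PDGF-AA. Its 4 features differed in sign at 6 d, from -0.42 to 0 without factor and from -0.29 to 0.02 with PDGF-AA. Hmgb1 is no member, because the annotation lists its symbol more than once on each of its 2 features. Averaged as 1 gene in an added alternative, Hmgb1 was at -0.66 ± 0.11 (adjusted p = 0.000441) and -0.45 (adjusted p = 0.00784) without factor at 12 h and 6 d, and at -0.35 (adjusted p = 0.0914) and -0.33 (adjusted p = 0.109) with PDGF-AA. The wider list of HMG-box genes outside the rule had 7 measured members of 31, of which none changed at 12 h and Sox8 alone rose at 6 d without factor (0.45, adjusted p = 0.0411).

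Promoters of 3 of the genes with large or repeated changes show what lies upstream of them in the rat genome. The sequences are the 250 bases before the annotated start, from RefSeq on build GRCr8, 5′ to 3′ on the strand of the gene. Capitals mark the CCAAT box (CCAAT), the cell cycle homology element (CHR, TTTGAA) and E2F-like sites (TTTGGCGC, TTTCCCGC or TTTCGCGC), searched on both strands, and none of these motifs lies within another. Hmgb2 is at chr16:37723951-37724200 and Ezh2 at chr4:77687184-77687433, both on the minus strand, and Kdm5b is at chr13:48554147-48554396 on the plus strand.
Hmgb2: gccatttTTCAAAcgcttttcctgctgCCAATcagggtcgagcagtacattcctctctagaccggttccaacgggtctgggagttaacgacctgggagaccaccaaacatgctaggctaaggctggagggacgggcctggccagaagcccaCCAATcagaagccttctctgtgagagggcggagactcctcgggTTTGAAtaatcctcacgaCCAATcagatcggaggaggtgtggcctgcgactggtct
Ezh2: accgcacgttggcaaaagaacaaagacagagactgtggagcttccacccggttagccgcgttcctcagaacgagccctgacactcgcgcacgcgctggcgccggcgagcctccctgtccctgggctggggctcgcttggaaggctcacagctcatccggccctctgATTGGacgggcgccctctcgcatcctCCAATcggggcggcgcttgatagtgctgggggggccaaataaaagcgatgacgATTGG
Kdm5b: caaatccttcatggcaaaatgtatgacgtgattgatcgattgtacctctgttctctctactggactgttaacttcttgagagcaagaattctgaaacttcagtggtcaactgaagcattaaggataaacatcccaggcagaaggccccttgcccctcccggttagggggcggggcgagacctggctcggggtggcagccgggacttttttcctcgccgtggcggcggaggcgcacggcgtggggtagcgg

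The Hmgb2 window holds 3 CCAAT boxes and 2 CHR letters, the Ezh2 window holds 3 CCAAT boxes, and the Kdm5b window holds none of the motifs. Of the 53 members 46 were matched by symbol to such a promoter; Chd7, Chd8, Dnmt3b, Ezh1, Hdac11, Kdm6a and Kmt2e were not. Motif shares are descriptions of small sets. A CCAAT box was found in 5 of the 9 members that fell against the reference in any group (Ezh2, Hmgb2, Hmgn5, Kdm1a and Kmt5a) and in 2 of the 9 matched members that rose (Chd4 and Kdm4b). Over all 27457 promoters of this length 34.3% held it, as did 37.0% of the matched members. CHR letters stood in 2 of the 9 that fell (Cbx1 and Hmgb2), in 0 of the 9 that rose, in 8.7% of the matched members and in 16% of all promoters. An E2F-like site stood in 1 of each 9 (Cbx3 and Smarcd1) in 4 of the 46 matched members (8.7%) and in 1.49% of all promoters. These matches are letters in a window and no evidence of binding.

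Ezh2, the catalytic methyltransferase of the Polycomb repressive complex that silences developmental genes, fell without factor at both times. Its arrays read -0.84, -0.40, -0.41 and -0.59 at 12 h without factor, and -0.10, -0.11, -0.15 and -0.06 with PDGF-AA. The 12 h groups did not overlap. At 6 d the arrays read -0.46, -0.63, -0.91 and -0.46 without factor and 0.15, -0.29, -0.26 and -0.93 with PDGF-AA, where replicate 4 of PDGF-AA lay below all 4 arrays without factor and its other 3 arrays lay above them. The changes were -0.56 ± 0.11 (adjusted p = 0.00279) at 12 h and -0.62 ± 0.11 (adjusted p = 0.00106) at 6 d without factor. With PDGF-AA they were -0.10 (adjusted p = 0.836) and -0.33 (adjusted p = 0.13). The related methyltransferase gene Ezh1 lay between -0.10 and 0.21 and passed the threshold nowhere, and Cbx7, which reads the Polycomb mark, lay between -0.09 and 0.10.

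Of 21 listed Polycomb partners 11 were measured. At 12 h without factor Suz12 and Eed, the core partners of Ezh2, fell (-0.52 ± 0.12, adjusted p = 0.00747, and -0.45 ± 0.09, adjusted p = 0.00355), while Phc2 of the other Polycomb complex rose (0.43, adjusted p = 0.0291). At 6 d without factor Eed alone passed (-0.29, adjusted p = 0.0479), and Suz12 was at -0.31 (adjusted p = 0.114). With PDGF-AA none passed at either time, and Suz12 was at -0.28 and -0.08. Among all units 3.01% and 3.22% passed with PDGF-AA at 12 h and 6 d, so 0 of 11 is near that share. Without factor 11.7% and 13.7% of all units passed. The median of the 11 lay between -0.03 and 0.07 in the 4 groups. Rbbp7, a histone-binding protein shared by Polycomb and deacetylase complexes, fell by 0.67 at 12 h and by 0.41 at 6 d without factor (adjusted p = 0.00032 and 0.0113).

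Kmt5a, which places a single methyl group on histone H4 in mitosis, also fell without factor. Its arrays read -0.67, -0.36, -0.41 and -0.57 at 12 h without factor and -0.06, -0.17, -0.46 and 0.07 with PDGF-AA. At 6 d they read -0.59, -0.44, -0.44 and 0.02 without factor and 0.07, 0.11, 0.06 and -0.63 with PDGF-AA. As measured, the 12 h groups overlapped through replicate 3 of PDGF-AA, a Cy3 array, and the 6 d groups through replicate 4 of PDGF-AA. The dye effect of Kmt5a was 0.27 and did not pass the threshold. After its removal the 12 h groups no longer overlapped, while the 6 d groups still did. The test between treatments, given below, passed at neither time. The changes without factor were -0.50 ± 0.11 (adjusted p = 0.00616) and -0.36 ± 0.11 (adjusted p = 0.0379), and both features of the gene lay below 0 in each. The fall at 6 d missed the threshold without replicate 1 (-0.23, adjusted p = 0.324), 2 or 3 (both -0.38, adjusted p = 0.0833 and 0.101) of that group or replicate 1 of no factor at 12 h (-0.36, adjusted p = 0.0505).

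**Figure D2:**
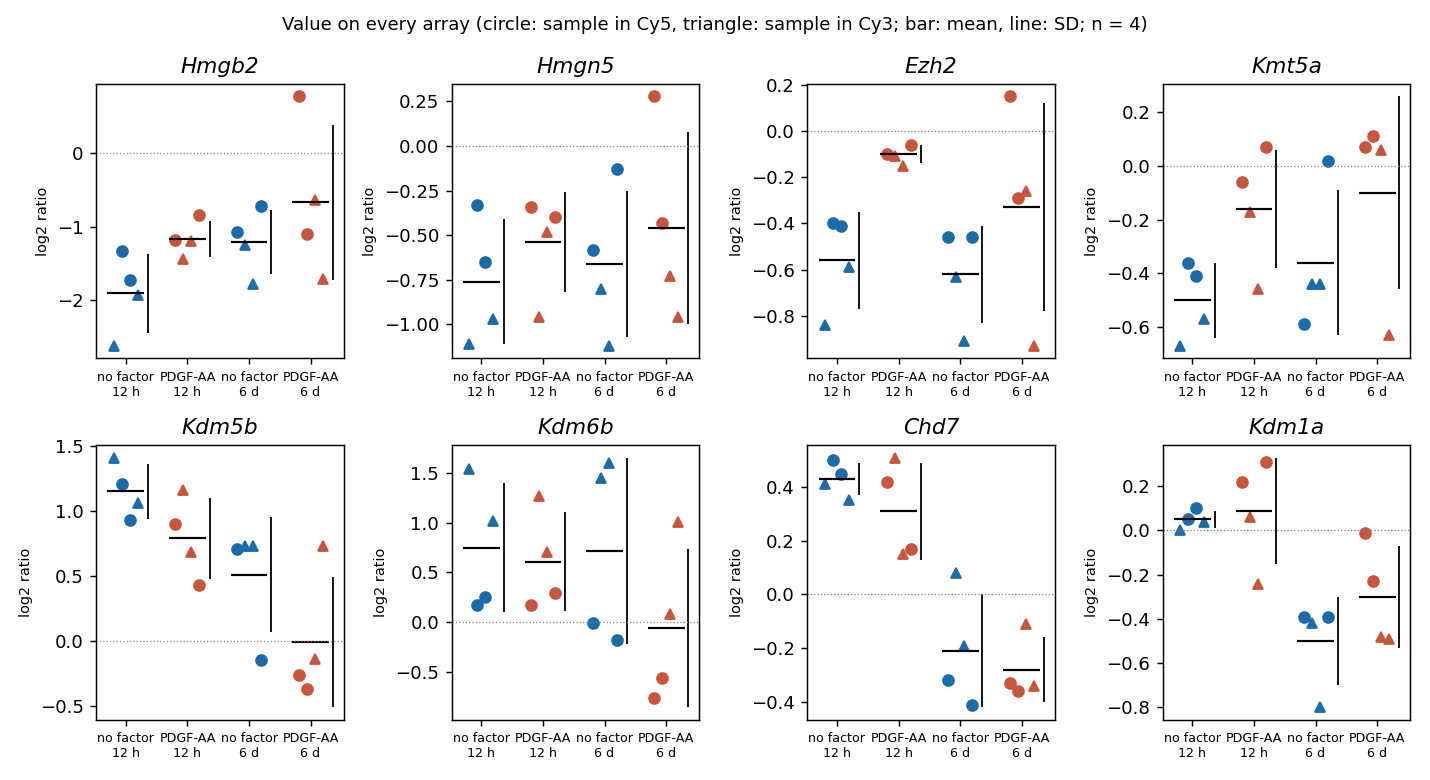
Each point is the log2 ratio of 1 array (y axis, different scale in each panel) in the 4 groups (x axis; blue without factor, red with PDGF-AA) for 8 genes, with circles for the sample in Cy5 and triangles for Cy3, a bar for the mean and a line for 1 SD (n = 4). Hmgb2 reads 0.78 on replicate 1 of PDGF-AA at 6 d and lies between -2.63 and -0.64 elsewhere, Kdm6b splits by dye in the 4 groups, and Chd7 is above 0 on all 8 arrays of 12 h.

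The demethylase genes were mostly above the reference at 12 h. Of 13 KDM genes, 12 lay above 0 at 12 h both without factor (median 0.27) and with PDGF-AA (median 0.17), with Kdm4a at -0.01 and -0.03. Among all units 50.2% and 50.3% lay below 0. Of all 53 members 35 lay above 0 and 18 below without factor, and 33 above and 20 below with PDGF-AA. Of 8 CHD genes 8 and 5 lay above 0 in these groups, and of 6 KMT genes 5 and 4. The KDM genes past the threshold were 6, all higher, without factor and 2, both higher, with PDGF-AA, against 5.21% and 0.661% of all units called higher. At 6 d the medians were 0.08 and -0.04. Both groups share the reference, so these counts are not independent.

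Kdm5b, which removes methyl groups from the active mark on histone H3, had the largest rise. Its arrays read 1.41, 1.21, 0.93 and 1.06 at 12 h without factor and 0.90, 1.16, 0.68 and 0.43 with PDGF-AA. The groups overlapped between 0.93 and 1.16, and all 8 values lay above 0. At 6 d the arrays read 0.71, 0.73, 0.73 and -0.15 without factor and -0.26, -0.37, -0.14 and 0.73 with PDGF-AA, so replicate 4 stood apart from the other 3 arrays in both groups. The changes were 1.15 ± 0.15 (2.22-fold, adjusted p = 8.14e-05), 0.79 ± 0.15 (adjusted p = 0.00781), 0.51 ± 0.15 (adjusted p = 0.0329) and, with PDGF-AA at 6 d, -0.01 ± 0.15 (adjusted p = 0.984). Both features of the gene rose alike, at 1.08 and 1.23 at 12 h without factor. The call with PDGF-AA at 12 h was lost without replicate 1 (0.69, adjusted p = 0.0968) or 2 (0.73, adjusted p = 0.0738) of that group, and the call at 6 d without replicate 1 (0.36, adjusted p = 0.254), 2 or 3 (both 0.49, adjusted p = 0.107 and 0.128) of no factor at 6 d.

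Kdm6b, which removes the Polycomb mark from histone H3, rose in the same 3 groups, on 1 feature with a strong dye effect of -1.16. At 12 h without factor the Cy3 arrays (replicates 1 and 4) read 1.54 and 1.02, and the Cy5 arrays read 0.17 and 0.25. With PDGF-AA at 12 h the Cy3 arrays read 1.27 and 0.71 and the Cy5 arrays 0.17 and 0.29. At 6 d without factor the Cy3 arrays read 1.45 and 1.60 and the Cy5 arrays -0.01 and -0.18, and with PDGF-AA the Cy3 arrays read 0.08 and 1.01 and the Cy5 arrays -0.77 and -0.56. The split by dye was thus wider than any difference between groups. The changes were 0.75 ± 0.15 (adjusted p = 0.00306), 0.61 ± 0.15 (adjusted p = 0.0336) and 0.72 ± 0.15 (adjusted p = 0.00325), with -0.06 ± 0.15 (adjusted p = 0.899) for PDGF-AA at 6 d. Without the dye term the adjusted p of these rises was 0.235, 0.689 and 0.251. The call with PDGF-AA at 12 h was also lost without replicate 1, 2 or 4 of that group (0.55, 0.58 and 0.51, adjusted p 0.165 to 0.237).

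Kdm4b, Kdm3a, Kdm5a and Kdm3b, demethylases of methyl marks on histone H3, passed the threshold only at 12 h without factor and by narrow margins. Kdm4b read 1.00, 0.24, 0.61 and 0.22 there (0.52 ± 0.15, adjusted p = 0.0345), and 0.02, 0.71, 0.94 and 0.16 at 6 d without factor (0.46, adjusted p = 0.0571). Its other groups gave 0.26, 0.18, -0.12 and 0.33 with PDGF-AA at 12 h and -0.31, -0.23, 0.09 and 0.61 at 6 d. Kdm3a read 0.37, 0.44, 0.43 and 0.07 at 12 h without factor (0.33 ± 0.10, adjusted p = 0.0474), but its 3 features disagreed in sign, from -0.06 to 0.59. Kdm5a read 0.12, 0.43, 0.40 and 0.34 (0.32 ± 0.10, adjusted p = 0.0439), and Kdm3b read 0.25, 0.42, 0.23 and 0.22 (0.28 ± 0.09, adjusted p = 0.0493). All 16 of these 12 h values without factor lay above 0.

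In the other 3 groups Kdm3a, Kdm5a and Kdm3b lay closer to 0. Kdm3a read 0.40, 0.31, -0.03 and 0.12 with PDGF-AA at 12 h, 0.19, 0.30, 0.15 and -0.09 at 6 d without factor and -0.08, -0.19, -0.20 and 0.21 with PDGF-AA. Kdm5a read 0.48, 0.15, 0.24 and -0.19, then -0.08, 0.22, 0.14 and 0.02, then 0.07, -0.02, 0.02 and 0 in the same order of groups. Kdm3b read 0.28, 0.37, 0.18 and 0.03, then 0.19, 0.11, -0.01 and -0.10, then -0.25, -0.23, 0.14 and -0.10. Each of these 12 h ranges with PDGF-AA overlapped that without factor.

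These 4 calls were fragile. Kdm4b lost its call without replicate 1 (0.40, adjusted p = 0.214), 2 (0.56, adjusted p = 0.0875) or 3 (0.43, adjusted p = 0.199) of its own group. Kdm3a lost it without replicate 1, 2 or 3 of that group (0.29 to 0.31, adjusted p up to 0.211), and it missed the threshold at 0.33 when 1 of 6 arrays of the other groups was left out. These were replicates 2 and 4 for PDGF-AA at 12 h, replicates 1 and 3 in the 6 d group without factor, and replicates 1 and 2 in the 6 d group with PDGF-AA. Kdm5a lost it when replicate 2, 3 or 4 of that 12 h group was left out (0.28 to 0.32, adjusted p up to 0.209), and it missed the threshold at 0.32 when 1 of 5 other arrays was left out. These were replicate 2 for PDGF-AA at 12 h, replicates 3 and 4 in the 6 d group without factor, and replicates 1 and 2 in the 6 d group with PDGF-AA. Kdm3b lost it in 13 of 16 single losses (0.22 to 0.31, adjusted p up to 0.276), and kept it only when the array left out was replicate 4 for PDGF-AA at 12 h, replicate 1 in the 6 d group without factor or replicate 3 in the 6 d group with PDGF-AA.

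Kdm1a, a flavin-dependent demethylase that works with CoREST and deacetylases, was the KDM gene that fell. At 12 h its arrays lay near the reference, at 0, 0.05, 0.10 and 0.04 without factor and 0.22, 0.06, -0.24 and 0.31 with PDGF-AA. At 6 d they read -0.39, -0.42, -0.80 and -0.39 without factor and -0.01, -0.23, -0.48 and -0.49 with PDGF-AA. All 4 arrays without factor at 6 d lay below all 8 of 12 h. The change at 6 d was -0.50 ± 0.09 (adjusted p = 0.000874) without factor and -0.30 ± 0.09 (adjusted p = 0.0775) with PDGF-AA. The remaining KDM genes, Kdm1b, Kdm2a, Kdm2b, Kdm4a, Kdm5c and Kdm6a, passed the threshold nowhere as averages and lay between -0.27 (Kdm2b, PDGF-AA at 6 d) and 0.27 (Kdm2b, no factor at 12 h). Tested on its own in limma, 1 of 3 features of Kdm6a passed at 6 d without factor (0.34, adjusted p = 0.0105).

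Kmt2e, named as a member of the MLL family and known for a role in the cell cycle, rose without factor. Its arrays read 0.57, 0.68, 0.38 and 0.36 at 12 h and 0.48, 0.79, 0.57 and 0.04 at 6 d without factor. With PDGF-AA they read 0.48, 0.32, 0.20 and 0.26 at 12 h and -0.41, -0.17, 0 and 0.27 at 6 d. The groups overlapped at both times. The changes without factor were 0.50 ± 0.11 (adjusted p = 0.00801) and 0.47 ± 0.11 (adjusted p = 0.00945), and both features lay above 0 in each. With PDGF-AA they were 0.31 (adjusted p = 0.18) and -0.08 (adjusted p = 0.804). The 12 h call was lost without replicate 2 of that group (0.40, adjusted p = 0.085), and the 6 d call without replicate 1 (0.43, adjusted p = 0.0646), 2 (0.38, adjusted p = 0.0749) or 3 (0.46, adjusted p = 0.0503) of its group.

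Averaged over their features, the other KMT genes, Kmt2b, Kmt2c, Kmt5b and Kmt5c, lay between -0.25 and 0.26 and passed the threshold nowhere. Tested on its own in limma, 1 feature of Kmt2c passed at 12 h without factor (0.41, adjusted p = 0.013), while another was at -0.19. There 1 of 4 features of Kmt5b also passed (0.43, adjusted p = 0.0178). Of 37 listed histone methyltransferases and their partners 20 were measured. At 12 h without factor Dpy30, a core subunit of MLL complexes, fell by 0.63 ± 0.11 (adjusted p = 0.000818) and the arginine methyltransferase gene Prmt1 by 0.43 (adjusted p = 0.00605). Ehmt2, which places a repressive mark on histone H3, moved most of the 2 that rose (0.51, adjusted p = 0.0177). At 6 d without factor 3 fell: Dpy30 (-0.63, adjusted p = 0.000705), Prmt5 (-0.60, adjusted p = 0.000543) and Prmt1 (-0.35, adjusted p = 0.0197). None of the 20 passed with PDGF-AA, where Dpy30 was at -0.37 (adjusted p = 0.0732) and -0.23 (adjusted p = 0.301). Among all units 3.01% and 3.22% passed with PDGF-AA at 12 h and 6 d, so 0 of 20 is near that share. Without factor 11.7% and 13.7% of all units passed.

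Among the CHD remodellers, Chd7, known for keeping neural stem cells and for its role in oligodendrocyte precursors, rose at 12 h without factor. Its arrays read 0.41, 0.50, 0.45 and 0.35 without factor and 0.42, 0.51, 0.15 and 0.17 with PDGF-AA at 12 h. At 6 d they read -0.32, 0.08, -0.19 and -0.41 without factor and -0.33, -0.36, -0.11 and -0.34 with PDGF-AA. All 8 values at 12 h lay above 0 and 7 of 8 at 6 d lay below 0. The change was 0.43 ± 0.09 (adjusted p = 0.00495) at 12 h without factor and 0.31 (adjusted p = 0.0802) with PDGF-AA, and at 6 d -0.21 (adjusted p = 0.168) and -0.28 (adjusted p = 0.113).

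Chd3 and Chd4, the ATPases of the NuRD deacetylase complex, rose at 6 d without factor. Chd4 read 0.17, 0.60, 0.77 and 0.11 there (0.41 ± 0.09, adjusted p = 0.00514), with its 3 features between 0.34 and 0.48, and -0.21, -0.36, 0.27 and 0.56 with PDGF-AA. Chd3 read -0.18, 0.62, 1.22 and 0.52 there (0.54 ± 0.14, adjusted p = 0.0135) and -0.43, -0.30, 0.59 and 0.36 with PDGF-AA. Both groups overlapped for each gene, and the dye effect was -0.43 for Chd4 and -0.66 for Chd3. At 12 h Chd4 read 0.41, 0.19, 0.03 and 0.27 without factor and -0.02, 0.28, 0.16 and -0.06 with PDGF-AA. Chd3 read 0.92, 0.22, -0.32 and 0.23, and -0.26, 0.10, 0.33 and -0.13. The call of Chd4 was lost without replicate 3 of no factor at 6 d (0.36, adjusted p = 0.0506) and that of Chd3 without replicate 3 or 4 (0.42 and 0.43, adjusted p = 0.131 and 0.098). Chd1, Chd1l, Chd6, Chd8 and Chd9 lay between -0.27 and 0.18.

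In NuRD and the other deacetylase complexes 15 of 26 listed partners were measured. At 12 h without factor 2 rose, of which Mta2 moved most (0.37, adjusted p = 0.0162), and Rbbp7 and Tbl1xr1 fell (-0.67 and -0.50, adjusted p = 0.00032 and 0.000201). At 6 d without factor Sin3b rose (0.49, adjusted p = 0.00308) and Rbbp7 fell. None of the 15 passed with PDGF-AA, which is near the 3.01% and 3.22% of all units at 12 h and 6 d. Without factor 11.7% and 13.7% of all units passed. Hdac3, the deacetylase of the nuclear corepressor complex that contains Tbl1xr1, fell at 6 d without factor.

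Hdac3 arrays read -0.36, -0.50, -0.37 and -0.21 at 6 d without factor and 0.37, -0.32, -0.06 and -0.03 with PDGF-AA. The ranges overlapped through replicate 2 of PDGF-AA. At 12 h they read -0.17, -0.05, 0.16 and -0.36 without factor and -0.09, -0.30, -0.37 and 0.19 with PDGF-AA. The change at 6 d without factor was -0.36 ± 0.10 (adjusted p = 0.0262), and the call was lost without any 1 of the 4 arrays of that group (-0.40 to -0.32, adjusted p 0.0608 to 0.147). Hdac6, Hdac10 and Hdac11 passed nowhere, the highest value being 0.45 ± 0.17 for Hdac11 at 6 d without factor (adjusted p = 0.0939). A feature annotated to both Hdac1 and Hdac2, outside the rule, fell at 6 d without factor (-0.38 ± 0.10, adjusted p = 0.0143). Among the sirtuins, 3 of 7 were measured, and Sirt2, which is also a myelin gene and on the oligodendrocyte list, was at 0.67 (adjusted p = 0.0146) and 3.09 ± 0.17 (adjusted p = 1e-08) without factor at 12 h and 6 d and at 0.50 (adjusted p = 0.14) and 2.63 ± 0.17 (adjusted p = 1.78e-07) with PDGF-AA. The other oligodendrocyte gene measured, Pdgfra, also passed at 6 d without factor (1.51 ± 0.36, adjusted p = 0.00912), and the part of such cells in any member's change was not tested.

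The SMARC genes encode subunits of the BAF (SWI/SNF) remodeller and related ATPases, and 1 of 8 passed at each time without factor, a share near that of all units (11.7% and 13.7%). Smarcd1 read 0.43, 0.40, 0.31 and 0.39 at 12 h without factor and 0.34, 0.42, 0.11 and 0.10 with PDGF-AA. At 6 d it read -0.12, 0.22, -0.06 and -0.25 without factor and -0.28, -0.41, -0.20 and 0.03 with PDGF-AA. The 12 h arrays without factor all lay above the 6 d arrays without factor. The change was 0.38 ± 0.09 (adjusted p = 0.00808) at 12 h without factor, lost without replicate 2 of that group (0.35, adjusted p = 0.0654).

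Smarcc1, a scaffold subunit of the progenitor form of BAF, read -0.34, -0.33, -0.34 and -0.34 at 6 d without factor and 0.06, -0.20, -0.15 and -0.53 with PDGF-AA. At 12 h it read -0.10, -0.19, -0.16 and 0 without factor and -0.03, 0.18, 0.14 and -0.06 with PDGF-AA. The 6 d values without factor lay within 0.01 of each other, and the change was -0.34 ± 0.09 (adjusted p = 0.0172). The call was lost without any 1 array of that group, with the value unchanged at -0.34 (adjusted p 0.0561 to 0.075). Smarca1, Smarcad1, Smarcal1, Smarcb1, Smarcd2 and Smarce1 lay between -0.37 and 0.33. Tested on its own in limma, 1 of 2 features of Smarcad1 passed at 12 h without factor (0.45, adjusted p = 0.0135), and the other was at 0.11. The 3 features annotated to both Smarca2 and Smarca4, the BAF ATPases, are outside the rule and disagreed: 1 was at 0.78 ± 0.12 (adjusted p = 0.000347) at 12 h without factor and the others at 0 and 0.08. The first was at 0.56 (adjusted p = 0.0165) with PDGF-AA at 12 h. Of 2 features annotated to Smarca5 and its pseudogene, also outside the rule, 1 fell at 6 d without factor (-0.43 ± 0.08, adjusted p = 0.00144) and the other was at -0.07.

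Of 20 other listed BAF subunits 9 were measured. Arid2 and Dpf2 rose at 12 h without factor (both 0.36, adjusted p = 0.00682 and 0.00826), and Brd7 fell at both times without factor (-0.46 and -0.44, adjusted p = 0.00603 and 0.00615). Actl6a, the actin-related subunit of the progenitor complex, fell at 6 d without factor (-0.48 ± 0.10, adjusted p = 0.00479), where Arid2 was at 0.26 (adjusted p = 0.0401). Among 12 of 19 measured ISWI and INO80 partners, Ruvbl2 fell (-0.52 and -0.31, adjusted p = 0.00082 and 0.0257) and Pole3 rose (0.43 and 0.33, adjusted p = 0.00737 and 0.0308) at both times without factor, and Baz2a rose at 6 d (0.33, adjusted p = 0.0342). None of either list passed with PDGF-AA, which is near the 3.01% and 3.22% of all units at 12 h and 6 d. Without factor 11.7% and 13.7% of all units passed. Of 7 measured histone acetyltransferases of 17, Kat6b alone passed, rising by 0.43 and 0.52 without factor (adjusted p = 0.0339 and 0.00904).

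The heterochromatin proteins HP1 beta and HP1 gamma, encoded by Cbx1 and Cbx3, bind the repressive methyl mark on histone H3. Cbx3 read -0.10, -0.69, -1.12 and -0.15 at 6 d without factor and 0.38, 0.28, -0.50 and -0.58 with PDGF-AA. At 12 h it read -0.73, 0.24, -0.22 and -0.56 without factor and -0.45, -0.36, -0.63 and 0.07 with PDGF-AA. Cbx1 read -0.30, -0.65, -0.55 and -0.06 at 6 d without factor and 0.13, 0.42, -0.32 and -1 with PDGF-AA, and at 12 h -0.71, 0.13, 0.11 and -0.66, and -0.16, -0.44, -0.64 and 0.26. Both genes split by dye, with effects of 0.65 and 0.69, and as measured their groups overlapped throughout. After removal of the dye effect the 6 d ranges of Cbx3 were -0.79 to -0.37 without factor and -0.26 to 0.05 with PDGF-AA. These ranges did not overlap, whereas those of Cbx1 at 6 d still did. The test between these 2 groups, given below, did not pass for either gene. The changes at 6 d without factor were -0.51 ± 0.12 (adjusted p = 0.0056) for Cbx3 and -0.39 ± 0.11 (adjusted p = 0.0294) for Cbx1. The call of Cbx3 was lost without replicate 3 of that group (-0.41, adjusted p = 0.0669) and that of Cbx1 without replicate 1, 2 or 4 (-0.30, -0.42 and -0.39, adjusted p = 0.215, 0.0629 and 0.0888). Without the dye term the adjusted p was 0.151 and 0.363.

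Cbx5, which encodes HP1 alpha, lay between -0.20 and 0.13 and passed nowhere. Of 10 listed HP1 partners 8 were measured, and 4 fell and 1 rose at 12 h without factor, against 3 that fell with PDGF-AA at 12 h, 3 at 6 d without factor and none with PDGF-AA. At 12 h without factor Incenp, Lbr and Lmnb1, of the centromere and the nuclear lamina, fell by 1.57, 1.46 and 1.00 (adjusted p = 6.68e-06, 3.75e-05 and 0.000143). They fell by 0.97, 0.88 and 0.59 with PDGF-AA at 12 h (adjusted p = 0.00241, 0.00996 and 0.0286) and by 0.54, 1.11 and 0.86 at 6 d without factor (adjusted p = 0.0272, 0.000425 and 0.000494). With PDGF-AA at 6 d they were at -0.32, -0.50 and -0.50 and none passed. Among all units 11.7%, 3.01%, 13.7% and 3.22% passed in these 4 groups, in that order.

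No DNA methyltransferase gene passed the threshold. Only 4 were measured, and among all units 3.01% to 13.7% passed in the 4 groups. Dnmt1, which copies methylation after replication, was at -0.41 ± 0.13 (adjusted p = 0.056) at 12 h without factor, -0.05 with PDGF-AA, -0.03 at 6 d without factor and 0.29 with PDGF-AA, and it passed at 12 h without factor when replicate 2 of that group, replicate 2 of the 6 d group without factor or replicate 1 of the 6 d group with PDGF-AA was left out. The de novo enzyme genes Dnmt3a and Dnmt3b and their cofactor Dnmt3l lay between -0.17 and 0.31. Tested on its own in limma, 1 of 2 features of Dnmt3a passed at 6 d without factor (0.40, adjusted p = 0.0269), and the other was at 0.05. Uhrf1, which brings Dnmt1 to newly made DNA, fell by 1.78 ± 0.18 (adjusted p = 6.68e-06) at 12 h without factor, by 0.98 (adjusted p = 0.00554) with PDGF-AA and by 0.86 (adjusted p = 0.00283) at 6 d without factor. With PDGF-AA at 6 d it was at -0.31 (adjusted p = 0.426). Hells, a remodeller needed for DNA methylation, fell at 12 h without factor alone (-1.18, adjusted p = 0.000802). Of 11 genes of this list 5 were measured, and the other 3 passed nowhere.

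Histone chaperones deliver histones, among other places behind the replication fork. Of 13 measured genes of 17, 8 fell at 12 h without factor (median -0.53), 4 with PDGF-AA (-0.23), 7 at 6 d without factor (-0.32) and 1 with PDGF-AA (-0.13), and none rose. Among all units 6.48%, 2.35%, 6.73% and 1.32% fell in these groups, and the difference from the list was not tested. The medians of all units lay within 0.004 of 0 in these groups. Chaf1a, of the chromatin assembly factor, was at -1.64 ± 0.15 (adjusted p = 4.89e-06), -0.64 (adjusted p = 0.0283), -0.68 (adjusted p = 0.00558) and -0.15 (adjusted p = 0.706) in these groups. Anp32a alone fell at 6 d with PDGF-AA (-0.63 ± 0.11, adjusted p = 0.00274), and it was at -0.55 (adjusted p = 0.00219) at 6 d without factor. Cenpa, the centromeric histone variant and the only 1 of 15 listed histone variants measured, fell in all 4 groups, from -0.55 to -0.42 (adjusted p 0.00061 to 0.00381). The cell cycle list fell in the same groups, as given above, and its part in these changes was not tested.

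The comparison of PDGF-AA with no factor asks what the growth factor adds. No member passed the threshold at 12 h (0 of 53, against 0.0159% of all units) or at 6 d (0 of 53, against 0.00796%), and none showed an interaction of treatment and time (0 of 53, against 0% of all units). Unadjusted p-values under 0.05 were found for 6 members at 12 h (11.3%, against 5.42% of all units), 7 at 6 d (13.2%, against 8.76%) and 2 in the interaction (3.77%, against 3.96%). At 12 h PDGF-AA was higher than no factor by 0.74 ± 0.33 for Hmgb2 (95% interval 0.05 to 1.43, adjusted p = 0.896) and by 0.46 ± 0.16 for Ezh2 (0.13 to 0.79, adjusted p = 0.732). The difference was 0.35 ± 0.16 for Kmt5a and 0.37 ± 0.15 for Hmga2, and it was -0.46 ± 0.15 for Chd1l and -0.35 ± 0.15 for Kmt5c. At 6 d Kdm6b differed by -0.77 ± 0.21 (-1.22 to -0.33, adjusted p = 0.397), and Kmt2e differed by -0.55 ± 0.16, Kdm5b by -0.52 ± 0.21, Chd3 by -0.49 ± 0.20 and Chd4 by -0.35 ± 0.13. Cbx3 and Hdac3 differed by 0.41 ± 0.16 and 0.35 ± 0.15. These differences did not hold up against the adjustment over all units, and an adjusted p above the threshold does not show that the treatments act alike. On the astrocyte and oligodendrocyte lists, replicate 4 of each 6 d group lay nearer the arrays of the opposite group. The 6 d arrays also differ in a title number of unstated meaning. The same number is on 3 of 4 arrays without factor and 1 of 4 with PDGF-AA. Treatment and number thus cannot be fully told apart at 6 d.

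**Figure D3:**
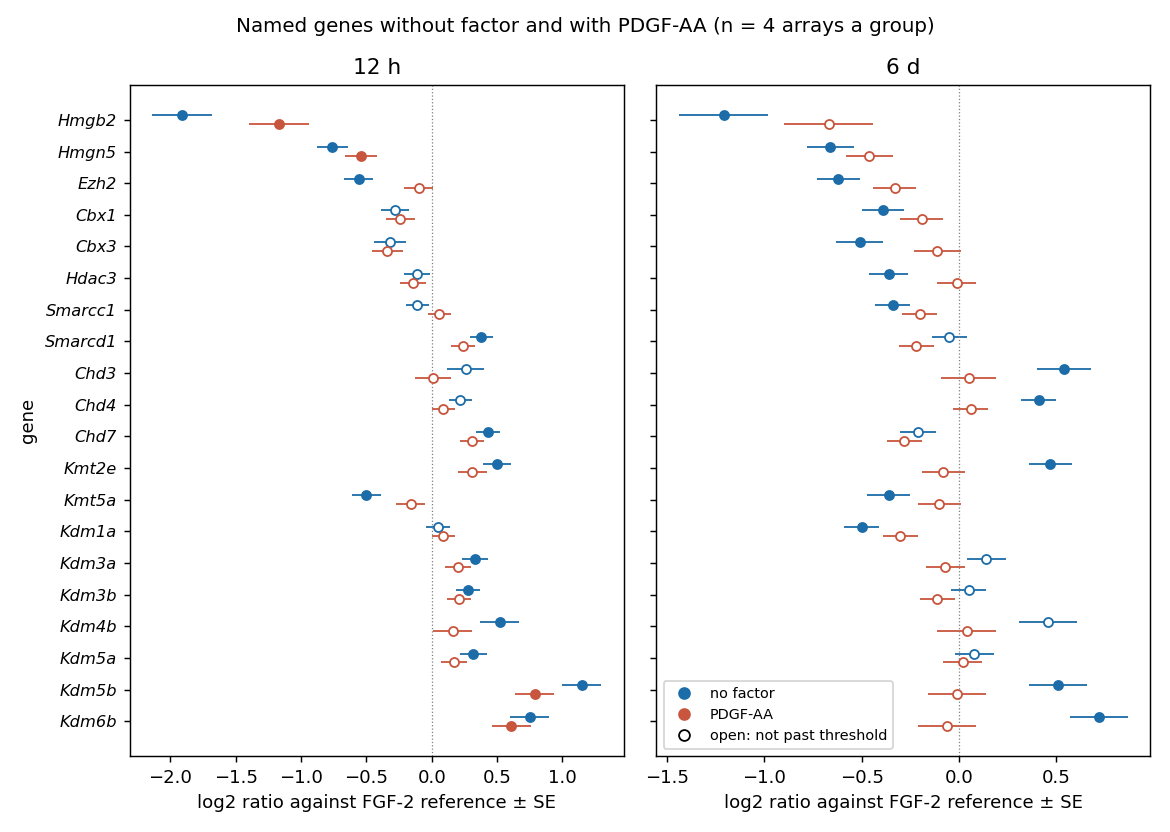
Points give the log2 ratio against the FGF-2 reference with its SE (x axis) of the 20 genes called in any comparison (y axis), at 12 h (left) and 6 d (right), in blue without factor and in red with PDGF-AA (n = 4 arrays a group); filled points passed an adjusted p of 0.05. At 6 d no PDGF-AA point is filled, and Kdm6b lies at 0.72 without factor and -0.06 with PDGF-AA.

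Between 12 h and 6 d the member with a change in both treatments was Chd7. It fell by 0.64 ± 0.13 without factor (adjusted p = 0.0156) and by 0.60 ± 0.13 with PDGF-AA (adjusted p = 0.033), with an interaction of 0.04 (95% interval -0.34 to 0.43). Its 2 features fell by 0.64 each without factor and by 0.66 and 0.53 with PDGF-AA. Kdm1a fell by 0.55 ± 0.12 without factor (adjusted p = 0.0303), and with PDGF-AA its difference was -0.39 ± 0.12 (adjusted p = 0.185). These were the only calls: 2 of 53, both lower, without factor (against 1.87% of all units, 1.42% higher and 0.454% lower) and 1 of 53, lower, with PDGF-AA (against 1.07%, 0.637% higher and 0.438% lower). Smarcd1 was at -0.43 and -0.46 ± 0.12 (adjusted p = 0.0964 and 0.0968) and Kdm5b at -0.65 and -0.80 ± 0.21 (adjusted p = 0.168 and 0.0953). Hmgb2 differed by 0.70 and 0.50 ± 0.33 (adjusted p = 0.426 and 0.614), toward the reference. Kmt5c lay above 0 on all 4 arrays of 12 h without factor (0.10 to 0.44) and below 0 on all 4 of 6 d (-0.35 to -0.03), but its difference of -0.43 ± 0.15 did not pass (adjusted p = 0.208).

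The time calls also rested on single arrays. Chd7 without factor lost its call without replicate 2 or 3 of 12 h or replicate 3 or 4 of 6 d (-0.63 to -0.58, adjusted p 0.0572 to 0.066). With PDGF-AA it lost it when replicate 1, 2 or 4 of either time was left out (-0.63 to -0.54, adjusted p 0.0549 to 0.133). Kdm1a lost it without replicate 1, 3 or 4 of either time without factor (-0.57 to -0.48, adjusted p 0.0691 to 0.121). The array titles carry a number of unstated meaning, which is the same on all 8 arrays of 12 h, on 3 of 4 arrays of 6 d without factor and on 1 of 4 with PDGF-AA. With that number in the fit all 3 calls were lost: Chd7 was at -0.62 without factor (adjusted p = 0.0578) and -0.70 with PDGF-AA (adjusted p = 0.328), and Kdm1a at -0.55 (adjusted p = 0.0732). For PDGF-AA that fit compares the times through the 1 array of 6 d that shares the number of 12 h. The sign of each value was kept in all of these.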

How the data were processed

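RNA of 16 samples was hybridised against RNA of FGF-2-treated cells on mouse cDNA arrays and read on a ScanArray scanner, per the labels' protocols. The authors deposited 1 log ratio of the channels per feature and array, taken here as log2 of sample over reference, since neither base nor direction is stated. Background correction and normalisation: not given in the sources used here.

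Features were centred on the array median, and features with exactly 1 symbol in the chip annotation were averaged by symbol. All 16 arrays were fitted with limma 3.58.1 in R 4.3.3, with 4 group coefficients and a dye term. A unit needed values on 3 arrays of each group. P-values were adjusted by the Benjamini-Hochberg method over 12559 units, with a threshold of 0.05, for 9 comparisons, and the scripts were tested on simulated data. Named members are those called in at least 1 comparison, and up to 3 called genes of a partner list in a comparison. The members and lists were chosen with earlier results of these data known. Replicate numbers follow accession order. No 2 arrays held identical values. Alternatives covered the dye term, centring, scaling, the arrays fitted, the title number, single features, the variance prior and the loss of each array. The number of arrays limits the precision. Promoters came from a RefSeq table of build GRCr8.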

Additional observations from a re-analysis of the deposited data

Results flagged for a closer look

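After removal of the dye effect, 12 of 212 sets of 4 arrays (1 gene in 1 group) held an array whose gap to the nearest other, as a share of the range of the set, passed Dixon's 95% critical value. By that value's definition chance alone gives about 1 in 20 sets. Among genes named for a change, Hmgn5 stood at -0.19 on replicate 3 of PDGF-AA at 12 h, against -0.68 to -0.62 on the others. Kdm1a stood at -0.13 on replicate 1 of PDGF-AA at 6 d, against -0.36 to -0.35. Kdm4b stood at 0.45 on replicate 4 of PDGF-AA at 6 d, against -0.15 to -0.07.

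The other 9 sets belong to genes whose average over features passed in no comparison. Without factor at 12 h they were Dnmt3a on replicate 3 (0.31), Kdm2b on replicate 4 (0.18) and Kmt5b on replicate 2 (0.46). With PDGF-AA at 12 h they were Dnmt3l on replicate 1 (-0.73), Hdac6 on replicate 1 (-0.15) and Kdm2a on replicate 4 (-0.12). Without factor at 6 d they were Cbx5 on replicate 2 (-0.33), Dnmt1 on replicate 2 (0.35) and Smarcal1 on replicate 1 (-0.69).

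The change against the reference differed between 6 d and 12 h, by a test of the difference in limma, for Chd7 without factor (-0.64, adjusted p = 0.0156), Chd7 with PDGF-AA (-0.60, adjusted p = 0.033) and Kdm1a without factor (-0.55, adjusted p = 0.0303).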

How the results depend on the processing

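Over 34 called changes of single genes and 884 pairs of a change with an alternative, 740 stayed past the threshold, 144 missed it and 0 turned sign. The calls kept in all alternatives were 10: Chd7, Ezh2, Hmgb2, Hmgn5, Kdm5b and Kmt5a at 12 h and Ezh2, Hmgb2, Hmgn5 and Kdm1a at 6 d, all without factor. With the title number in the limma fit several calls at 6 d without factor were lost. They were Kdm5b (0.38, adjusted p = 0.153), Kmt5a (-0.24, adjusted p = 0.183), Hdac3 (-0.32, adjusted p = 0.113), Cbx1 (-0.31, adjusted p = 0.0914) and Kmt2e (0.45, adjusted p = 0.0509). Without the dye term the members called were 8 at 12 h without factor, 1 at 12 h with PDGF-AA, 6 at 6 d without factor, and 1 and 0 between 6 d and 12 h without factor and with PDGF-AA; over all units the counts against the reference were 830, 156, 990 and 191, against 1468, 378, 1723 and 404 with it. For PDGF-AA at 6 d the count was 1 with arrays scaled to a common spread, 1 when the number in the array title entered the fit, 2 with only arrays of the commonest such number, which leaves 1 array of PDGF-AA at 6 d assumed to vary like the other groups, and 1 with each feature tested on its own; the labels do not say what the number is. The counts between 6 d and 12 h without factor and with PDGF-AA were 1 and 0 with only the groups compared in the fit, 0 and 0 when that title number entered the fit, and 0 and 0 among arrays of the commonest number, where the arm of PDGF-AA at 6 d is again that 1 array; with each feature on its own the count with PDGF-AA was 0. The cause was not tested in any of these. Leaving out each array in turn gave 8 to 13 members at 12 h without factor, 0 to 4 at 12 h with PDGF-AA, 6 to 16 at 6 d without factor and 0 to 3 at 6 d with PDGF-AA. It gave 0 to 2 and 0 to 1 between 6 d and 12 h without factor and with PDGF-AA, and 0 in both comparisons of PDGF-AA with no factor and in the interaction. No paired analysis was possible because the labels give the samples no replicate numbers that the groups share. Rat RNA on mouse cDNA and the number of arrays limit what small changes can show.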
